A study of Mus musculus with 9 samples.

Results

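The ATP-binding cassette (ABC) transporters were followed across lymphatic endothelial cells (LECs) of 3 mouse tissues. A gene was taken as a member when its deposited symbol was Abc, a subfamily letter from a to g and a number. This gave 41 of the 23018 genes in the count table, with 11 in subfamily A, 8 in B, 9 in C, 4 in D, 1 in E, 3 in F and 5 in G. The rule used names only and no measured value. It leaves out Tap1, Tap2 and Cftr, which are ABC genes under other symbols, and it takes in Abce1 and Abcf1 to Abcf3, whose proteins have no membrane domain and are not transporters.

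ABC proteins bind and hydrolyse ATP on a pair of conserved cassettes, and most couple this to moving a substrate across a membrane. Full transporters carry both cassettes and both membrane domains in 1 chain, while shorter forms such as ABCG2 and the ABCD proteins work as dimers. In endothelium the family is best known for the drug pumps P-glycoprotein (Abcb1a and Abcb1b in the mouse) and ABCG2, which face the blood in brain capillaries, and for cholesterol export through ABCA1 and ABCG1.

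Wild-type male mice of the C57BL/6 strain, 10 weeks old and given no treatment, were the source of LECs sorted as CD45-CD31+PDPN+ cells of 3 tissues (meninges, diaphragm and skin), with 3 libraries per tissue and 9 in all. By their labels the groups differ in tissue alone, and no batch is named. The design sets meningeal LECs beside those of 2 peripheral tissues. The make-up of the sorts also differed with tissue, as the marker sums below show. Whether each library is a separate animal or a pool is not said in the labels, so a p-value speaks only to how far these libraries spread, which may be technical. Total counts ran from 26075366 in Diaphragm replicate 1 to 34592850 in Meninges replicate 3, and 13241 to 17245 genes had a count. The lymphatic markers Prox1, Flt4, Lyve1, Reln and Mmrn1 were abundant in every library, whereas Ccl21a did not exceed 1.35 CPM (the count scaled to the library's TMM-adjusted size). Their level was not equal between tissues: the 8 genes of the lymphatic list summed to 15094, 6380 and 10867 CPM in Meninges replicates 1 to 3, 14315 to 21274 in diaphragm and 20708 to 21623 in skin. edgeR called Fgl2 lower in meninges than in either other tissue and Lyve1 lower than in skin, and limma voom called Prox1, Lyve1, Reln and Fgl2 lower in both pairs. Some libraries also held transcripts of other cells. Skin replicate 2 had the keratinocyte keratin Krt14 at 107.4 CPM, against no count in the other 2 skin libraries, and Diaphragm replicate 1 had the mesothelial gene Muc16 at 543 CPM, against 26.3 and 37.3 in the other 2. The fibroblast list summed to 8617 and 9099 CPM in Meninges replicates 2 and 3, against 2789 in replicate 1 and 995 to 2050 in the other tissues. The skeletal muscle list summed to 406 to 1081 CPM in diaphragm, 17.1 to 36.9 in meninges and 81.2 to 269 in skin, and edgeR called its genes Pax7 and Ttn lower in meninges than in diaphragm. The choroid plexus list summed to 1387 to 1991 CPM in meninges, 397 to 755 in diaphragm and 54.3 to 149 in skin. Much of this sum came from its genes Aqp1 and Enpp2, with an edgeR mean of 8.80 and 7.10 on the log2 CPM scale. Of this list edgeR called Ttr higher in meninges than in diaphragm, and Ttr, Aqp1 and Enpp2 higher than in skin. DESeq2 and limma voom also called Ttr in both pairs, and DESeq2 called Kl and Otx2 in both. Ttr, Folr1 and Otx2 had no count in skin, and Otx2 had none in diaphragm. Whether the sum reflects choroid plexus cells was not tested. These lists and libraries are named again beside some of the genes below, whether or not the levels moved together.

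ABC transcripts made up between 0.141% and 0.237% of counts per library, and 27 to 34 of the 41 members had a count in a given library. Their CPM summed to 2026 ± 132 for meninges, 2040 ± 313 for diaphragm and 1870.0 ± 307 for skin (SD, n = 3 each), so the ranges of the tissues overlapped. In total 21 members had a count in all 9 libraries, and 31 members had enough counts to be tested. The filter keeps a gene that reaches its minimum in as few libraries as the smallest tissue has, so a member present in a single tissue could pass. By subfamily, 10 of 11 A, 6 of 8 B, 5 of 9 C, 4 of 4 D, 1 of 1 E, 3 of 3 F and 2 of 5 G members were tested.

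**Figure D1:**
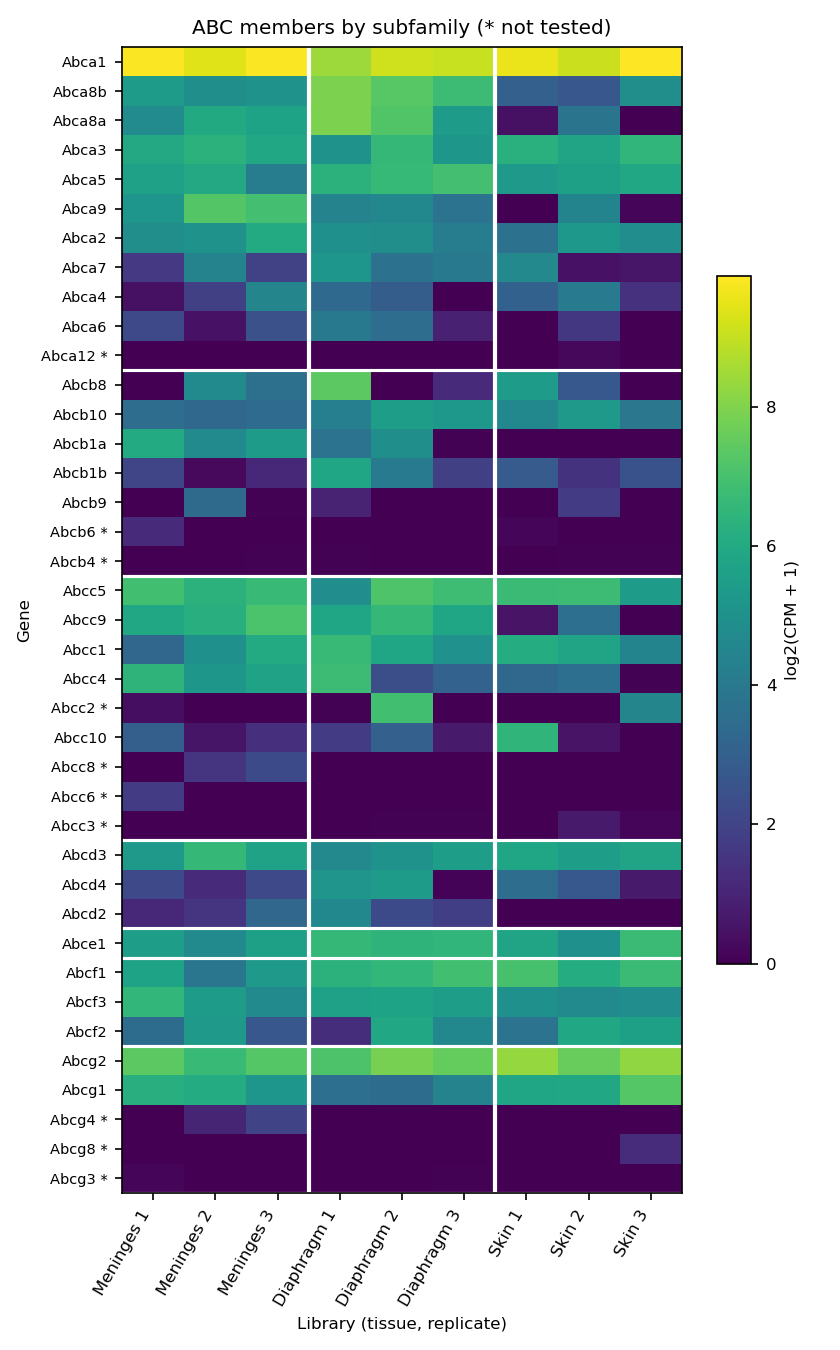
Level of 39 of the 41 members in each of the 9 libraries as log2(CPM + 1), in blocks by subfamily A to G from top to bottom, with an asterisk on the 10 untested members. The row of Abca1 is the brightest in every library, and Abcb1a and Abcd2 are at 0 in all 3 skin libraries.

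Few members differed between tissues beyond the spread of the libraries. In the comparison of meninges with skin, 1 of the 31 tested members was called by edgeR (adjusted p under 0.05 over all 14831 genes tested), namely Abcb1a, where 1.32% of all tested genes were called and 0.748% were called and higher in meninges and 0.573% lower. In the test for a difference anywhere among the 3 tissues, 1 member was called, namely Abca8b, where 1.27% of all genes were called. edgeR called 0 members between meninges and diaphragm, against 0.344% of all genes, and 0 between diaphragm and skin, against 0.0405%. At an unadjusted p under 0.05 there were 5 members in meninges against diaphragm, 7 in meninges against skin, 6 in diaphragm against skin and 7 for any tissue, which are 16.1%, 22.6%, 19.4% and 22.6% of the tested members beside 10.1%, 13.8%, 11.8% and 13.0% of all tested genes. DESeq2 called 4 and 3 of 31 members with an adjusted p in meninges against diaphragm and against skin (12.9% and 9.68%), and 5 and 4 of 30 in diaphragm against skin and for any tissue (16.7% and 13.3%), beside 6.03%, 9.5%, 7.05% and 7.33% of all genes with an adjusted p. The share of members in meninges against skin was thus near that of all genes. limma voom called 0, 1, 0 and 2 of the 31 members, beside 1.35%, 2.79%, 0.00674% and 2.9% of all genes. These shares of all genes are also the background for the counts in the smaller groups and lists below.

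The 3 libraries of a tissue often separated from those of another without passing the test. Meninges and diaphragm did not overlap for 9 tested members, of which 4 were higher in meninges and 5 were lower. This is 29.03% of the tested members, beside 17.1% of all tested genes, or 10.4% higher and 6.7% lower. Between meninges and skin 10 members did not overlap (32.3%, beside 20.2% of all genes), with 7 higher in meninges and 3 lower, beside 12.9% and 7.34% of all genes. Between diaphragm and skin there were 9 such members (29.03%, beside 13.5%), with 7 higher in diaphragm and 2 lower, beside 7.54% and 5.95%. The median log2 fold change over the tested members was -0.14 for meninges over diaphragm, 0.14 for meninges over skin and 0.43 for diaphragm over skin, beside 0.05, 0.08 and 0.01 over all tested genes. The 3 comparisons share their libraries pairwise and are not independent of each other.

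**Figure D2:**
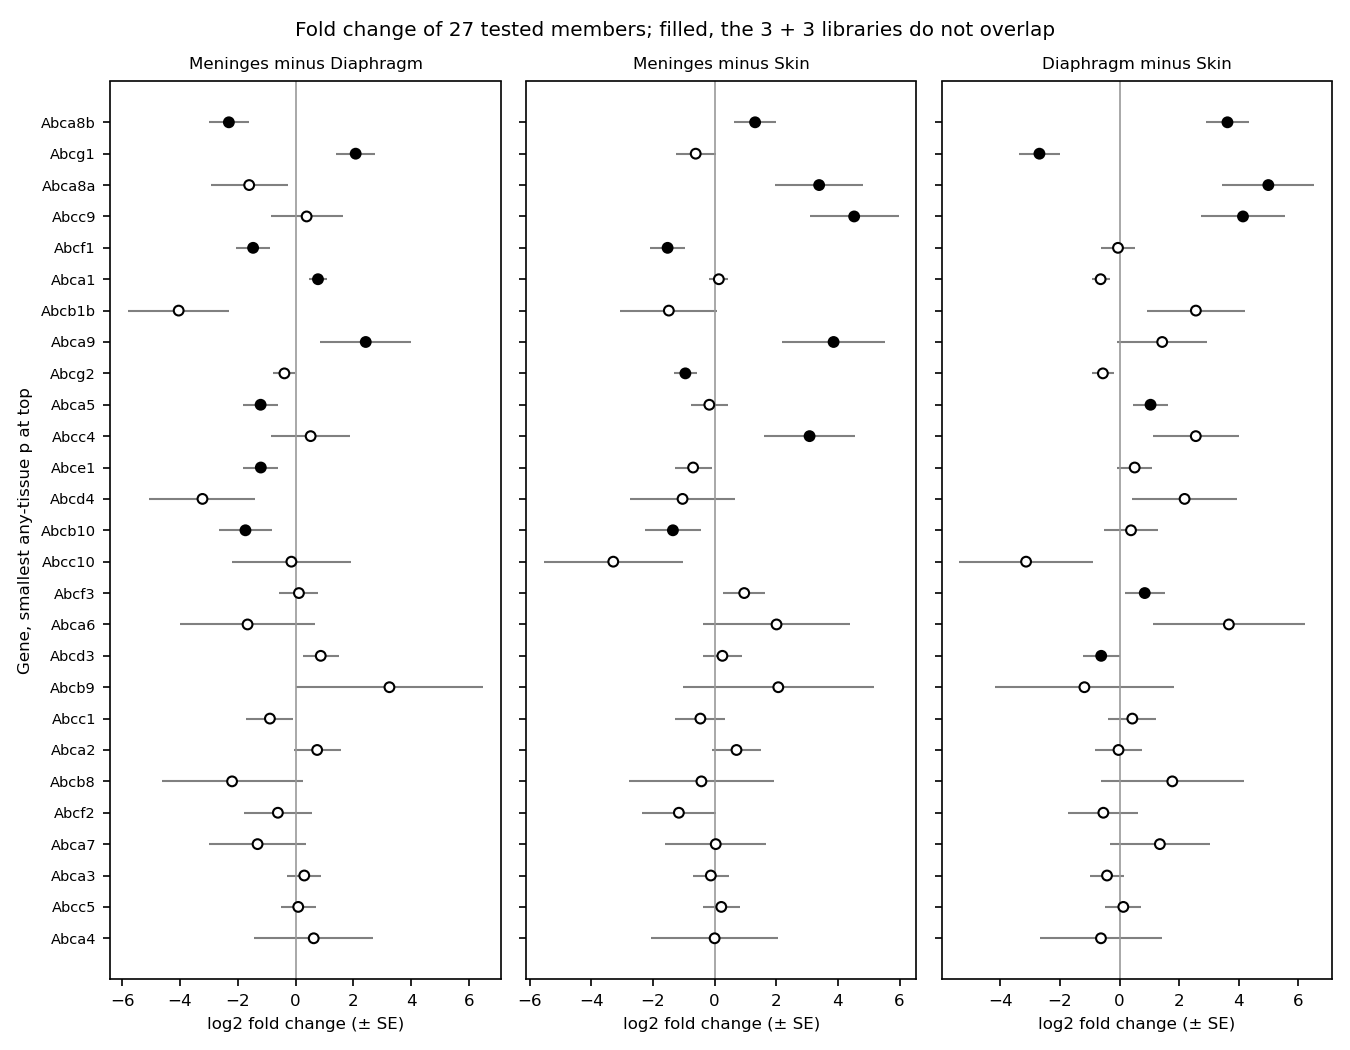
Log2 fold change with standard error of 27 tested members in each pair of tissues (edgeR, 3 libraries per tissue), ordered by the any-tissue p with the smallest at the top; Abcb1a and Abcd2, without a count in skin, are left out. Filled points mark members whose 3 + 3 libraries do not overlap, and Abca8b at the top is filled in all 3 panels.

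Per length, Abca1 was the most abundant member in all 3 tissues. Divided by the kilobases of exon in the reference annotation, Abca1 reached 79.9 ± 12.6 CPM per kb for meninges, 46.6 ± 11.4 for diaphragm and 72.5 ± 18.9 for skin (SD, n = 3 each). Abcg2 came next over all 9 libraries, with 17.2 ± 4.2, 22.4 ± 5.6 and 33.0 ± 8.4 CPM per kb in the same order. The ranges of Abca1 and Abcg2 did not overlap in any tissue. Abcf1 followed at 7.90 ± 4.40, 21.9 ± 4.3 and 22.7 ± 6.7 CPM per kb, and in diaphragm it differed from Abcg2 by less than their SDs. Abcf3, Abcf2, Abce1, Abca8a and Abca8b took the next places with overall means between 9.71 and 12.2 CPM per kb, and differed by less than their spread over the libraries. The median mean level over the tested members was 40.5 CPM, beside 14.9 CPM over all tested genes, both without the correction for length.

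**Figure D3:**
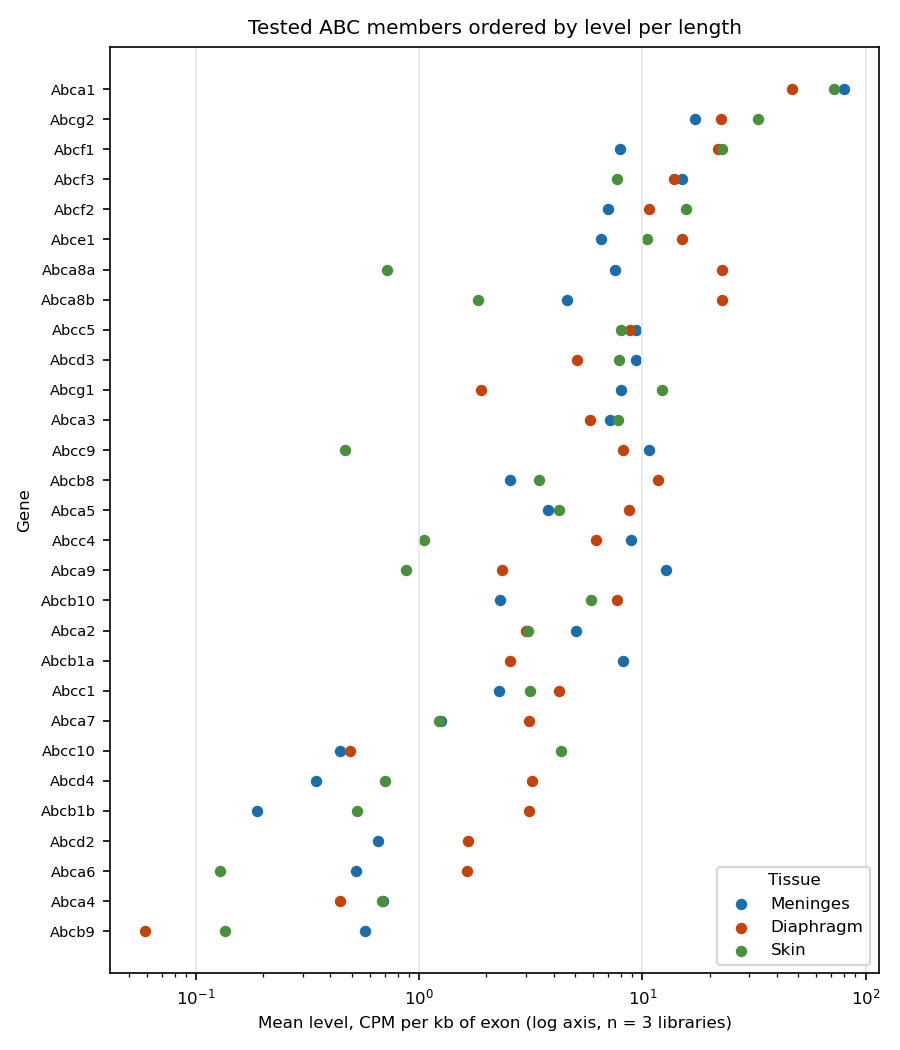
Mean level of 29 tested members per tissue in CPM per kb of exon (log axis, n = 3 libraries per tissue), ordered by the mean over all 9 libraries; a mean of 0, as for Abcb1a and Abcd2 in skin, has no point on this axis. Abca1 lies alone at the right in all 3 tissues, Abca8a and Abcc9 have their skin point far to the left of the other 2, and Abca8b has its diaphragm point to the right of the other 2.

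Among the drug and conjugate pumps, Abcb1a separated the tissues most. It encodes P-glycoprotein, which expels many lipophilic drugs, and its gene (ENSMUSG00000040584) lies beside its paralog Abcb1b on chromosome 5. Abcb1a stood at 65.6, 25.8 and 42.9 CPM in Meninges replicates 1 to 3 (2097, 825 and 1622 counts). It stood at 12.6, 29.2 and 0.0358 CPM in the diaphragm libraries (342, 770 and 1 count) and had no count in any skin library. Meninges and skin therefore did not overlap, and meninges and diaphragm did, because Diaphragm replicate 2 was above Meninges replicate 2. Taking a floor of 3 counts over the skin libraries, the log2 difference from skin was at least 10.08 higher for meninges (edgeR adjusted p = 0.0338) and at least 8.39 higher for diaphragm (adjusted p = 0.145, not called by edgeR). The difference between meninges and diaphragm was 1.68 (standard error 1.54, adjusted p = 0.874). In bulk libraries such as these, fewer cells of a type and less RNA per cell cannot be told apart.

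The call for Abcb1a stood when any 1 diaphragm library was removed and was lost without any 1 of the 3 meningeal or 3 skin libraries, with adjusted p between 0.0587 and 0.085. Within meninges the order of Abcb1a was also that of the blood endothelial list, at 1493, 537 and 747 CPM in replicates 1 to 3. Its member Plvap, at 314, 117 and 212 CPM, had this order too. The lymphatic, choroid plexus and brain blood endothelial lists had this order as well. The blood endothelial list summed to 1013, 435 and 363 CPM in Diaphragm replicates 1 to 3, where Abcb1a was highest in replicate 2. It summed to 332 to 466 CPM in skin, where 3 of its 9 genes (Aplnr, Esm1 and Sox17) had no count. Its median log2 fold change was 4.43 for meninges over skin, 4.24 for diaphragm over skin and 2.80 for meninges over diaphragm. Of the 9 genes, 8, 6 and 3 had an unadjusted edgeR p under 0.05 in these pairs, in the same order. DESeq2 called 5, 3 and 2 of them and limma voom 4, 0 and 2. In meninges against skin, where Abcb1a was called, edgeR also called Plvap, Esm1 and Sox17 of that list higher and Emcn lower. The brain endothelial transporter Slco1a4 had 33.9, 0.531 and 7.53 CPM in meninges, at most 0.0358 in diaphragm and none in skin, and Slco1c1 and Slc38a5 had no count in diaphragm or skin. Of the 8 genes of the brain blood endothelial list, 5 were tested. edgeR and limma voom called 0 of them in any comparison, with Slco1a4 at an unadjusted p under 0.05 in both pairs with meninges and Cldn5 in meninges against skin, while DESeq2 called Slco1a4 higher in meninges in both. The list summed to 248 to 392 CPM in meninges, 115 to 252 in diaphragm and 240 to 264 in skin. In Diaphragm replicates 1 and 2, which carried Abcb1a, the list summed to 163 and 115 CPM. Slco1a4, Slco1c1, Slc38a5 and Mfsd2a of the list had no count there. The part of blood endothelial cells in the level of Abcb1a was not tested.

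Abcb1b, which encodes another form of P-glycoprotein, followed another order. It stood at 55.6, 16.0 and 2.61 CPM in the diaphragm libraries, at 3.16, 0.187 and 1.14 in the meningeal ones and at 6.23, 1.75 and 4.57 in the skin ones. Diaphragm replicate 1 was far above the rest, Diaphragm replicate 3 lay within the range of the other tissues, and all 3 pairs of tissues overlapped. Meninges over diaphragm gave a log2 fold change of -4.04 (standard error 1.75, adjusted p = 0.452). In all, 22.5% of the 50-base windows in Abcb1a transcripts occur in transcripts of another gene, with 889 of these 1230 windows in Abcb1b, and 12.8% of those of Abcb1b are shared. The split of reads between the paralogs is uncertain, since the treatment of multiple matches was not given in the sources used here. A further 10.1% of the exon bases of Abcb1a lie opposite exons of Gm42686 on the other strand.

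The 250 bases upstream of both genes are printed because the paralogs lie side by side and share much coding sequence while their levels were ordered differently. They come from RefSeq on GRCm38.p6, the plus strand of chr5:8566841-8567090 for Abcb1a and chr5:8797897-8798146 for Abcb1b, and read 5′ to 3′ up to the start site. Capitals in this and the other upstream sequences mark 5 motifs searched on both strands: the CCAAT box (CCAAT), the GC box (GGGCGG), the TATA box (TATAAA), the E-box CACGTG, and the core of the direct repeat DR4 (GGTNA, 5 bases of any kind, and GGTNA again). No marked motif overlaps another in the sequences shown.
Abcb1a: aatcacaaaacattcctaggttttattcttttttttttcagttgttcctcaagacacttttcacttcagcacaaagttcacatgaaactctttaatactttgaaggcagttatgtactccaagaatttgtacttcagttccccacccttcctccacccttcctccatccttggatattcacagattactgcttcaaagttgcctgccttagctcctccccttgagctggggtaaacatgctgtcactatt
Abcb1b: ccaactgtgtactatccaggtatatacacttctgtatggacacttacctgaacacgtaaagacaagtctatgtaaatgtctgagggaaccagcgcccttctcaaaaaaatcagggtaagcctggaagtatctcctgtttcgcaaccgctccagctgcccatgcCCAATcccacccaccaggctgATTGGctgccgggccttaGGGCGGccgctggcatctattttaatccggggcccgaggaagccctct
None of the 5 motifs is in the window of Abcb1a, which has 40.4% G and C. The window of Abcb1b, with 52.8%, holds CCAAT in each orientation and 1 GC box. Of 32851 RefSeq windows of this length, 33.8% hold CCAAT, 32.7% a GC box, 12.4% TATAAA, 6.02% CACGTG and 0.621% the DR4 core, and a match describes letters and not a bound site.

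Per length, Abcg2 was the most abundant of the pumps in every tissue. ABCG2 works as a dimer and exports drugs, urate and porphyrins. Its level was 165, 101 and 154 CPM in the meningeal libraries, 136, 228 and 184 in the diaphragm ones and 315, 191 and 303 in the skin ones. Every skin library lay above every meningeal one, and diaphragm overlapped both. Meninges over skin gave -0.95 on the log2 scale (standard error 0.38, edgeR adjusted p = 0.289), so the difference was not called.

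Of the ABCC pumps, which export conjugates, nucleotides and other organic anions, Abcc5 was the highest by CPM. ABCC5 exports cyclic nucleotides. Abcc5 stood at 116, 81.4 and 102 CPM in meninges, 27.6, 141 and 112 in diaphragm and 106, 109 and 41.6 in skin. The tissues overlapped throughout, and no log2 fold change exceeded 0.22 in size (standard error 0.60 in each, adjusted p of 0.943 or more). Abcc4, another exporter of cyclic nucleotides and of prostaglandins, had 84.0, 36.4 and 50.8 CPM in meninges and 9.06, 11.1 and 0.0457 in skin, without overlap. Diaphragm replicate 1 had 107 CPM and the other diaphragm libraries 4.13 and 7.52, and the difference between meninges and skin was not called by any of the 3 tools (3.08, standard error 1.48, edgeR adjusted p = 0.38). The choroid plexus list had the same order as Abcc4 within meninges, at 1991, 1387 and 1559 CPM. The lymphatic, blood endothelial and brain blood endothelial lists shared this order, and the part of none of these lists was tested. Abcc1, an exporter of glutathione conjugates and leukotriene C4, ranged from 8.67 to 104 CPM with all tissues overlapping. Abcc10 was between 0 and 7.08 CPM in 8 libraries and at 87.9 in Skin replicate 1.

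As a group, 7 of the 9 pumps were tested. In meninges against skin 1 was called higher (Abcb1a) and 0 lower, with a median log2 fold change of -0.46, beside 0.08 over all tested genes. In each of the other 2 pairs edgeR called 0 of them, with 1 at an unadjusted p under 0.05 (Abcb1b between meninges and diaphragm, Abcb1a between diaphragm and skin). DESeq2 called those same genes there and limma voom called 0. The other genes of drug sensing and conjugation on a list of 16, of which 14 were in the table and tested, gave 0 calls by edgeR in any comparison. At an unadjusted p under 0.05 there were 1, 4 and 3 of them in meninges against diaphragm, meninges against skin and diaphragm against skin, while DESeq2 called 0, 3 and 2 and limma voom 0, 1 and 0. That list summed to 498 to 758 CPM in meninges, 750 to 898 in diaphragm and 698 to 819 in skin.

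**Figure D4:**
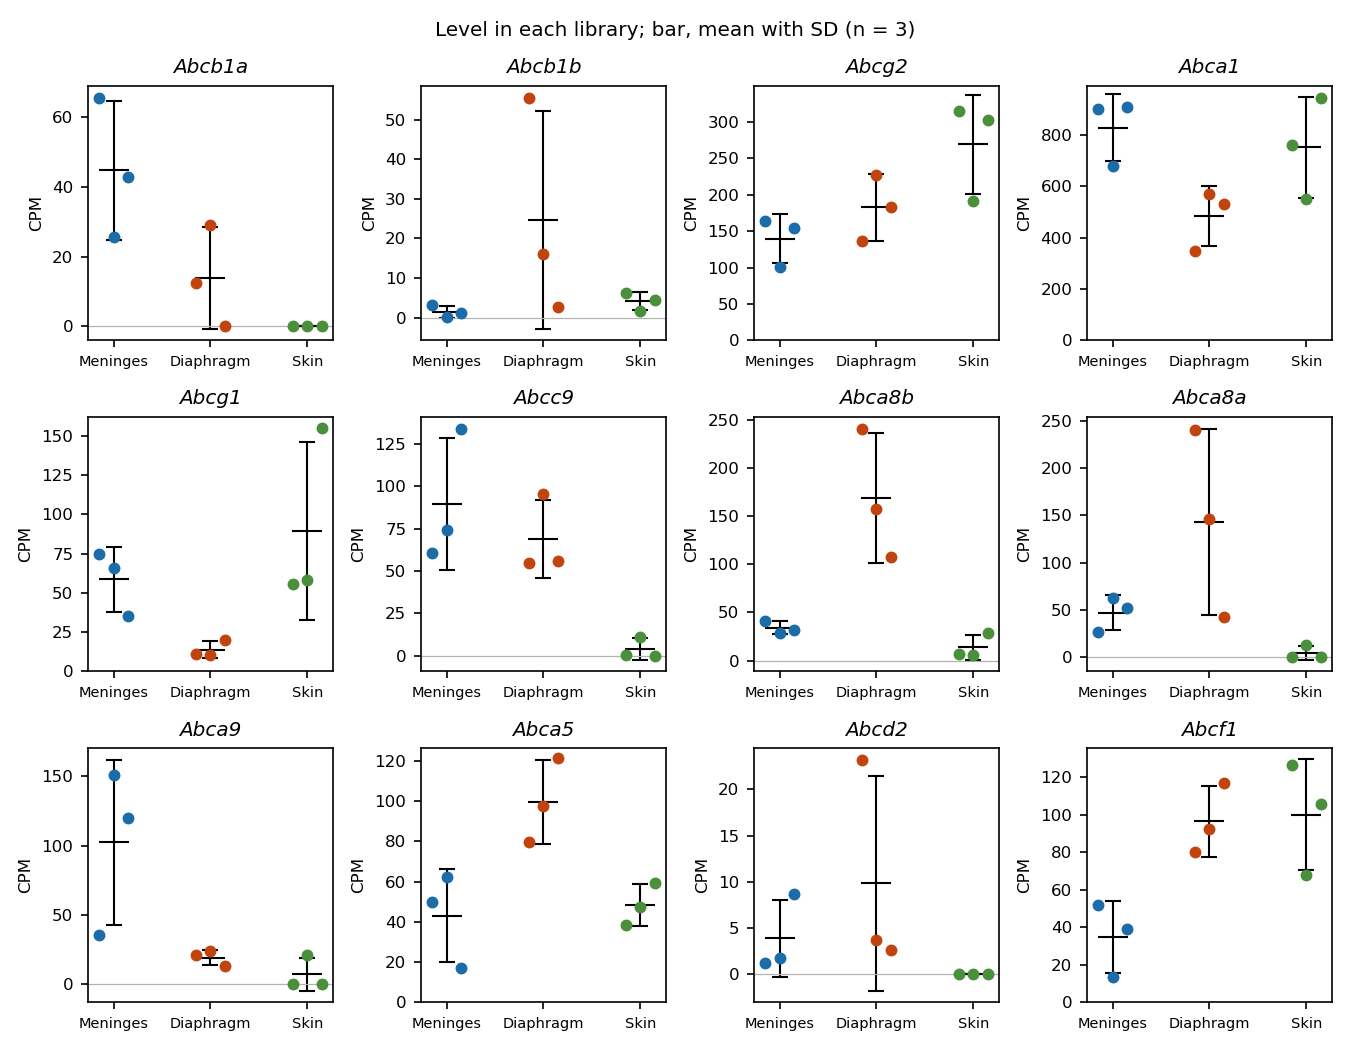
Level in CPM of 12 members in each library (points), with the mean and SD of each tissue (n = 3, vertical scale set per gene). Skin lies at 0 for Abcb1a and Abcd2, diaphragm is highest for Abca8b in each of its 3 libraries, and for Abcg1 the 3 diaphragm libraries lie below all others.

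The cholesterol exporters Abca1 and Abcg1 were both lower in diaphragm than in meninges in every library, without passing the test. ABCA1 loads cholesterol and phospholipid onto lipid-poor apolipoprotein A-I, and ABCG1 passes sterol on to mature particles. Abca1 stood at 898, 677 and 908 CPM in meninges, 349, 570 and 530 in diaphragm and 761, 550 and 942 in skin. Meninges and diaphragm did not overlap, while the lowest skin library lay below the highest diaphragm one. The log2 fold change was 0.78 for meninges over diaphragm (standard error 0.31, edgeR adjusted p = 0.393), -0.64 for diaphragm over skin (standard error 0.31, adjusted p = 0.436) and 0.14 for meninges over skin (standard error 0.30, adjusted p = 0.923). Abca1 alone gave 35.6% to 44.6% of the summed ABC CPM in meninges, 36.1% to 44.9% in skin and 16.6% to 31.1% in diaphragm, so its share in diaphragm lay below that in both other tissues.

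Abcg1 showed the larger fold change. It stood at 74.4, 65.9 and 35.3 CPM in meninges, 11.1, 10.2 and 20.1 in diaphragm and 55.5, 58.0 and 155 in skin. Each diaphragm library lay below all 6 others. Its log2 fold change was 2.08 for meninges over diaphragm (standard error 0.68, edgeR adjusted p = 0.318) and -2.69 for diaphragm over skin (standard error 0.69, adjusted p = 0.191), and DESeq2 called both. Meninges and skin overlapped (-0.61, standard error 0.65, adjusted p = 0.805).

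The upstream window of Abca1 is shown because the cholesterol-sensing receptors LXR act on this gene through a DR4 element. It is the minus strand of chr4:53159896-53160145 (RefSeq, GRCm38.p6), written 5′ to 3′ with the same capitals.
Abca1: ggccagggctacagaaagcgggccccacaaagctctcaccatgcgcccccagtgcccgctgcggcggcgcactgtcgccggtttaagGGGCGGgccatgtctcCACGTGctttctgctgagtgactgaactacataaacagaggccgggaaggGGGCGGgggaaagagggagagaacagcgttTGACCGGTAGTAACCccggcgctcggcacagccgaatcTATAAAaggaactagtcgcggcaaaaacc
The window holds 2 GC boxes, 1 E-box, 1 TATA box and 1 DR4 core, the last on the opposite strand at positions -67 to -53 counted from the start site. RefSeq windows of 29 of the 41 members could be searched, and Abcg1 was not among them.

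Genes of cholesterol uptake, synthesis, storage and LXR signalling were taken as a list of 24, of which 23 were tested. In meninges against skin 1 was called higher and 0 lower, and edgeR called 0 in the other 2 pairs, where 1 (meninges against diaphragm) and 4 (diaphragm against skin) had an unadjusted p under 0.05. DESeq2 called 0, 2 and 2 and limma voom 0, 1 and 0 over the 3 pairs. The gene called by edgeR was Pltp, the phospholipid transfer protein of plasma, an LXR target. It had 74.0, 9.12 and 99.2 CPM in meninges, 21.8, 4.81 and 4.94 in diaphragm and no count in skin (adjusted p = 0.00889 against skin). Pltp was thus highest in Meninges replicates 1 and 3. The fibroblast list, at 2789, 8617 and 9099 CPM in Meninges replicates 1 to 3, was also above skin in every library, and its part in the level of Pltp was not tested. The receptors Nr1h2 and Nr1h3 ranged from 1.79 to 51.7 and from 8.49 to 212 CPM and were not called. The list's median log2 fold change was 0.95 for meninges over diaphragm, beside 0.05 over all tested genes, and -0.21 for meninges over skin.

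Among the lipid exporters edgeR called 1, Abca8b, in the test for any tissue. It is one of a row of A-subfamily neighbours on chromosome 11. Abca8b, Abca8a, Abca9, Abca6 and Abca5 lie in this order there with no other protein-coding gene between them in the reference annotation. Their proteins are related to ABCA1, and ABCA8 has been linked to cholesterol and HDL. Abca8b (ENSMUSG00000020620) stood at 241, 157 and 108 CPM in diaphragm, 41.4, 28.9 and 31.9 in meninges and 7.16, 5.36 and 28.5 in skin. The libraries of the 3 tissues did not overlap in any pair, with diaphragm highest and skin lowest. The adjusted p of Abca8b for any tissue was 0.0373 (edgeR). edgeR called none of its pairs: the log2 fold change was 3.62 for diaphragm over skin (standard error 0.73, adjusted p = 0.0931), -2.31 for meninges over diaphragm (standard error 0.69, adjusted p = 0.268) and 1.32 for meninges over skin (standard error 0.67, adjusted p = 0.426). DESeq2 called Abca8b in diaphragm against skin (adjusted p = 0.000165) and in meninges against diaphragm (adjusted p = 0.0496), and edgeR with no filter called the former (adjusted p = 0.00148).

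With 1 library removed at a time, the any-tissue call for Abca8b stood in 4 of 9 fits. It was lost without Diaphragm replicate 1 or 2, Meninges replicate 2 or 3 or Skin replicate 1, with adjusted p up to 0.149, the value without Diaphragm replicate 1. Without Skin replicate 3, where Abca8b was highest in skin, the pair of diaphragm and skin was called (4.75, adjusted p = 0.0304). Diaphragm replicate 1, with the highest Abca8b, was also the library with the most mesothelial transcript, the list summing to 1194 CPM there, 45.8 and 86.3 in the other diaphragm libraries and 0 in skin. The skeletal muscle list was also highest in diaphragm, at 594, 1081 and 406 CPM in replicates 1 to 3. The fibroblast list summed to 1950 to 2044 CPM in diaphragm, within the range of skin. The part of other cells was not tested.

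Abca8a was at 240, 146 and 42.8 CPM in diaphragm, 26.4, 63.0 and 51.8 in meninges and 0.348, 13.1 and 0 in skin. Diaphragm and meninges overlapped, and skin lay below both. Fold changes on the log2 scale were 4.997 for diaphragm over skin (standard error 1.54, adjusted p = 0.292) and 3.39 for meninges over skin (standard error 1.43, adjusted p = 0.301). edgeR called neither, while DESeq2 called diaphragm against skin. Of the 331 skin counts of Abca8a, 322 came from Skin replicate 2. Without that library both differences were called (adjusted p = 0.013 and 0.0106).

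The upstream windows of this pair, the minus strand of chr11:110095938-110096187 for Abca8a and chr11:109995846-109996095 for Abca8b, are printed because both genes had their highest level in Diaphragm replicate 1 and their lowest levels in skin.
Abca8a: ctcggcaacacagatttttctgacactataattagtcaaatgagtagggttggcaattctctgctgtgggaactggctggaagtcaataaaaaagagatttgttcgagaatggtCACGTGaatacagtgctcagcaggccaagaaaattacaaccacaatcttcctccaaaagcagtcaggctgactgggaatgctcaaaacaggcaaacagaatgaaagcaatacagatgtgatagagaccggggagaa
Abca8b: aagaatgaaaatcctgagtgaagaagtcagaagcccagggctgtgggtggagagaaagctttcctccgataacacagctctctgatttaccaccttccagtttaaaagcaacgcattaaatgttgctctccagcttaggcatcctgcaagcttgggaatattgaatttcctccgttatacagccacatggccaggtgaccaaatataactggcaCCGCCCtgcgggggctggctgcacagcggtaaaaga
The window of Abca8a holds 1 E-box CACGTG and that of Abca8b 1 GC box, read on the opposite strand. Neither holds a CCAAT box, a TATA box or the DR4 core, and they have 43.2% and 48.8% G and C. Shared windows of 50 bases were few, 1.64% of those of Abca8a and 2.45% of those of Abca8b.

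Among the next neighbours, Abca9 and Abca5 did not repeat this order. Abca9 was highest in meninges, at 35.5, 151 and 120 CPM, against 20.7, 23.5 and 12.7 in diaphragm and 0, 20.9 and 0.137 in skin. Meninges did not overlap the other tissues, and neither edgeR, DESeq2 nor limma voom called a pair (3.86 for meninges over skin, standard error 1.67, edgeR adjusted p = 0.314). Meninges replicates 2 and 3, with the high values, were those with the fibroblast sums of 8617 and 9099 CPM. Of the 519 skin counts of Abca9, 516 came from Skin replicate 2. The fibroblast list summed to 995, 2050 and 1902 CPM in Skin replicates 1 to 3. A list of 10 meningeal fibroblast genes summed to 212, 568 and 548 CPM in Meninges replicates 1 to 3. It summed to 7.16 to 62.2 CPM in diaphragm and to 162, 48.2 and 45.1 in Skin replicates 1 to 3. Without Skin replicate 2, Abca9 was called in meninges against skin (adjusted p = 0.00498). The part of fibroblasts was not tested. Abca5, thought to act in lysosomes, stood at 79.9, 97.4 and 121 CPM in diaphragm, above all meningeal (17.2 to 62.1) and skin (38.5 to 59.1) libraries, and was not called in any pair by the 3 tools (-1.21 for meninges over diaphragm, standard error 0.60, edgeR adjusted p = 0.549). The skeletal muscle list was highest in diaphragm as well, at 594, 1081 and 406 CPM in replicates 1 to 3. Within diaphragm it was thus lowest in replicate 3, where Abca5 was highest, and the part of this list was not tested. Abca6 was low, at 15.04, 10.6 and 0.860 CPM in diaphragm, 3.57, 0.406 and 4.41 in meninges and 0, 2.07 and 0 in skin. Its means of 8.85, 2.80 and 0.690 CPM had the order of Abca8a and Abca8b. All pairs of tissues overlapped for Abca6, and edgeR called none.

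The other lipid exporters of subfamily A showed no separation. Abca3, which packs surfactant lipid into lamellar bodies in the lung, had 61.9, 79.6 and 59.9 CPM in meninges, 32.4, 94.6 and 36.3 in diaphragm and 76.7, 53.1 and 89.0 in skin. All pairs overlapped, with log2 fold changes between -0.42 and 0.30 and standard errors of 0.58. Of its exon bases 9.75% lie opposite D330041H03Rik on the other strand. Abca2, a lysosomal lipid transporter of myelinating cells, ranged from 11.8 to 64.3 CPM, Abca7, a phospholipid transporter, from 0.406 to 36.0, and Abca4, the retinal transporter of vitamin A derivatives, from 0 to 21.7. Over the 11 tested lipid exporters of 15, edgeR called 0 in any pair. At an unadjusted p under 0.05 there were 3, 2 and 3 in meninges against diaphragm, meninges against skin and diaphragm against skin. All tested genes gave 10.1%, 13.8% and 11.8% in the same order. DESeq2 called 2, 0 and 3, beside 6.03%, 9.5% and 7.05% of all genes with an adjusted p, and limma voom 0 in each. The group had median log2 fold changes of 0.30, 0.14 and 1.04 in this order, beside 0.05, 0.08 and 0.01 over all tested genes.

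Abcc9 encodes SUR2, the sulfonylurea receptor that forms ATP-sensitive potassium channels with the pore protein of Kcnj8 and is a known transcript of pericytes. Abcc9 stood at 60.4, 74.4 and 134 CPM in meninges, 54.8, 95.2 and 56.0 in diaphragm and 0.426, 11.2 and 0 in skin. Both meninges and diaphragm lay above skin in every library. The log2 fold change was 4.53 for meninges over skin (standard error 1.44, edgeR adjusted p = 0.183) and 4.14 for diaphragm over skin (standard error 1.42, adjusted p = 0.331), and edgeR called neither. DESeq2 called meninges against skin (adjusted p = 0.0451), and edgeR with no filter called both (adjusted p = 0.00206 and 0.0099). Of the 287 skin counts 276 came from Skin replicate 2, and without it edgeR called both (adjusted p = 0.00768 and 0.0201). Kcnj8 did not follow it across tissues, with 167, 28.5 and 180 CPM in meninges, 11.9, 28.9 and 11.6 in diaphragm and 27.7, 0.284 and 101 in skin. Skin replicate 3, without a count of Abcc9, thus held 101 CPM of Kcnj8.

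The mural cell list, which marks pericytes and smooth muscle, had its lowest sums in skin, as Abcc9 had its lowest levels. It summed to 327 to 1033 CPM in meninges, 275 to 490 in diaphragm and 27.8 to 196 in skin, where Des, Cnn1 and Higd1b of its 10 genes had no count. For meninges over diaphragm its median log2 fold change was 2.56, while Abcc9 had 0.38 with overlapping libraries. Within diaphragm the list summed to 490, 288 and 275 CPM in replicates 1 to 3, and Abcc9 was highest in replicate 2. The pericyte marker Rgs5 was at 184 to 466 CPM in meninges, 101 to 250 in diaphragm and 0, 11.2 and 0 in skin, with its skin signal, like that of Abcc9, in Skin replicate 2. The sum of the list was instead lowest in Skin replicate 2 and highest in Skin replicate 3, where Acta2 stood at 137 CPM. Within the list, edgeR called Notch3 higher in meninges than in skin. The part of mural cells in the level of Abcc9 was not tested. The pancreatic sulfonylurea receptor Abcc8 had 1.91 and 3.65 CPM in Meninges replicates 2 and 3 and no count in the other 7 libraries, and Abcc6, an ATP release protein of the liver, had 2.35 CPM in Meninges replicate 1 only.

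Among the 4 tested ABCB dimers of mitochondria and lysosomes, edgeR called 0 in any comparison, with 0 at an unadjusted p under 0.05, and limma voom called 0, while DESeq2 called Abcb10 lower in meninges than in diaphragm. Abcb10, of the haem pathway, had 9.16 to 10.6 CPM in meninges, 18.1 to 43.7 in diaphragm and 13.9 to 38.3 in skin. Each meningeal library was thus below all others, but edgeR did not call the difference (-1.73 against diaphragm, standard error 0.93, adjusted p = 0.596), and 8.27% of its 50-base windows are shared with other genes. Abcb8, linked to mitochondrial iron, ranged from 0 to 165 CPM and was at 0 in 1 library of each tissue. Abcb9, a lysosomal peptide transporter, reached 9.53 CPM in Meninges replicate 2 and at most 2.27 elsewhere. Of 16 genes of haem and iron-sulfur synthesis, all tested, edgeR and limma voom called 0 in each pair of tissues. In meninges against skin 2 had an unadjusted p under 0.05 and DESeq2 called 2, in diaphragm against skin these counts were 1 and 1, and in meninges against diaphragm 0 and 0. The list summed to 264 to 292 CPM in meninges, 197 to 296 in diaphragm and 236 to 478 in skin.

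Of the D proteins, ABCD2 and ABCD3 import fatty acyl-CoAs into peroxisomes, and ABCD4 serves cobalamin release from lysosomes. Abcd3, which takes branched and bile acid precursors, was the highest, at 40.1, 93.6 and 51.1 CPM in meninges, 24.1, 32.1 and 44.70 in diaphragm and 57.2, 44.73 and 52.9 in skin. Diaphragm lay just below skin in all libraries and overlapped meninges (-0.62 for diaphragm over skin, standard error 0.62, adjusted p = 0.784). Abcd2, which prefers polyunsaturated chains, had 1.22, 1.81 and 8.67 CPM in meninges (39, 58 and 328 counts), 23.2, 3.67 and 2.58 in diaphragm (630, 97 and 72 counts) and no count in skin. Taking the same floor of 3 counts over the skin libraries, Abcd2 was at least 6.56 log2 units higher in meninges (edgeR adjusted p = 0.162) and at least 7.89 higher in diaphragm (adjusted p = 0.246). Neither was called by edgeR, whereas DESeq2 called both.

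Abcd4 ranged from 0.0716 to 42.7 CPM, both in diaphragm. A list of 19 other peroxisome genes had a summed level of 480.0 to 824 CPM in meninges, 488 to 609 in diaphragm and 365 to 895 in skin, so the tissues overlapped.

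The soluble ATPases of translation were all tested. ABCE1 splits ribosomes after termination, ABCF1 acts with initiation factor eIF2, and the other ABCF proteins bind ribosomes or their regulators. Abcf1 was at 51.7, 13.7 and 39.1 CPM in meninges, 79.9, 92.4 and 117 in diaphragm and 127, 68.0 and 105 in skin. All 3 meningeal libraries lay below all 6 others. The log2 fold change of meninges was -1.47 against diaphragm (standard error 0.58, edgeR adjusted p = 0.393) and -1.52 against skin (standard error 0.58, adjusted p = 0.255), and neither was called by edgeR, DESeq2 or limma voom. The lymphatic list was also below skin in every meningeal library, overlapped diaphragm and had the same order as Abcf1 within meninges. The choroid plexus, blood endothelial and brain blood endothelial lists shared this order, and the part of none of these lists was tested.

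Abce1 had 44.4, 24.8 and 48.2 CPM in meninges, 95.4, 84.7 and 89.6 in diaphragm and 53.3, 29.8 and 107 in skin. Diaphragm lay above meninges in every library, and skin spanned both (-1.20 for meninges over diaphragm, standard error 0.61, adjusted p = 0.557). Abcf3 was at 24.8 to 29.8 CPM in skin, below the 45.7 to 52.3 CPM of diaphragm, and reached 91.5 in Meninges replicate 1. Abcf2 ranged from 1.44 to 59.7 CPM with all tissues overlapping. Over these 4 genes the median log2 fold change was -0.91 for meninges over diaphragm and -0.92 for meninges over skin. Over all tested genes it was 0.05 and 0.08. In each pair 3 of 4 estimates were below 0 and edgeR called 0, with 1 (Abcf1) at an unadjusted p under 0.05. DESeq2 and limma voom also called 0. A list of 15 other genes of ribosome recycling and eIF2 had medians of -0.23 and 0.11 in the same comparisons, with 0 called by edgeR, DESeq2 or limma voom and 0 at an unadjusted p under 0.05.

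The ABC genes under other symbols are the peptide transporters Tap1 and Tap2, which feed MHC class I, and the chloride channel Cftr. Tap1 ranged from 7.09 to 18.4 CPM in meninges, 1.93 to 45.5 in diaphragm and 0.659 to 11.0 in skin. Tap2 had 11.9, 7.87 and 13.6 CPM in meninges, 3.94, 6.74 and 4.66 in diaphragm and 1.90, 0.731 and 0.411 in skin, so the tissues did not overlap, but edgeR called no pair (3.45 for meninges over skin, standard error 1.76, edgeR adjusted p = 0.428). DESeq2 called Tap2 in both pairs with skin. Cftr had 27.6 CPM in Diaphragm replicate 1, the library with the mesothelial transcripts, and at most 0.812 elsewhere. On the list of 14 peptide-loading genes, all tested, 1 was called higher in meninges than in skin, the MHC class I light chain B2m (1.82, standard error 0.33, adjusted p = 0.0145), and edgeR called 0 in the other 2 pairs. In meninges against skin 7 of the 14 had an unadjusted p under 0.05, beside 13.8% of all genes. DESeq2 called 5, beside 9.5%, and limma voom 3, beside 2.79%. In meninges against diaphragm the same counts were 0, 0 and 0. In diaphragm against skin they were 5, 4 and 0, beside 11.8%, 7.05% and 0.00674%. The list summed to 2542 to 3219 CPM in meninges, 2079 to 2556 in diaphragm and 1110 to 1220 in skin.

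Many members varied between libraries of the same tissue. For 11 of the 31 tested members (35.5%, beside 30.3% of all tested genes), a single tissue held a library with 10 CPM or more and another with less than 1 CPM. These were Abca4, Abca6, Abca7, Abca8a, Abca9, Abcb1a, Abcb8, Abcc10, Abcc4, Abcc9 and Abcd4. Abcc10 had over 80% of its summed CPM in 1 library, as did 2.66% of all tested genes. The median biological coefficient of variation was 0.976 over the tested members and 1.17 over all tested genes, so a member needed a large difference to pass the test.

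The 10 untested members were Abca12, Abcb4, Abcb6, Abcc2, Abcc3, Abcc6, Abcc8, Abcg3, Abcg4 and Abcg8. Abcc2, an apical exporter of bilirubin conjugates, was the highest of them, at 117 CPM in Diaphragm replicate 2 and 21.8 in Skin replicate 3 and at most 0.282 in the other 7 libraries. Abcb4, the phosphatidylcholine pump of bile next to Abcb1b on chromosome 5, did not exceed 0.0529 CPM. The sterol exporter Abcg8 had 1.42 CPM in Skin replicate 3 and no count elsewhere, and Abcg4, a sterol exporter close to Abcg1, was found in Meninges replicates 2 and 3 alone, at 1.03 and 3.12 CPM. Abca12 (keratinocyte lipid), Abcc3, Abcb6 and Abcg3 stayed at or below 1.25 CPM in every library.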

How the data were processed

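Per the labels' protocols, RNA of the sorted LECs (Arcturus PicoPure kit) was amplified before library preparation (Ovation RNA-Seq System V2, Nugen). The deposited table gives a raw read count for each Ensembl gene in each library. Per the submitters' processing notes FastQC, STAR and HTSeq were used with the mouse build mm9. Versions, annotation, strand setting and treatment of multiple matches were not given in the sources used here. The values of paralogs and of overlapping or antisense genes are uncertain for that reason.

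The count of every gene entered edgeR 4.0.16 in R 4.3.3, with filterByExpr (minimum count 10), TMM and a quasi-likelihood fit of 1 mean per tissue to the 9 libraries. Calls were made at a Benjamini-Hochberg adjusted p under 0.05 over the 14831 genes tested, and fold changes carry standard errors. Alternatives were DESeq2 1.42.0 (Wald, or likelihood ratio for any tissue), DESeq2 size factors, upper-quartile factors, limma 3.58.1 voom with quality weights, a robust fit, dropping the filter, requiring 50 counts in 3 libraries, fits of 2 tissues, the replicate number as a block and each library left out. Against a tissue without a count, bounds used a floor of 3 counts over the group, which covers counting error only. Replicates were not repeats of 1 library (chi-square over degrees of freedom of 308.3 or more). The tests were tried on simulated counts, with 50 genes changed in meninges at each of several sizes. edgeR then called 0 of the genes changed 2-fold, both against diaphragm and against skin. At the largest change it called 37 of the 50 against diaphragm and 36 against skin.

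Exon lengths, shared transcript windows and gene order came from GENCODE on GRCm38, and upstream windows from RefSeq on GRCm38.p6. Both differ from mm9, so no coordinate was joined to a count. Tables and plots used Python 3.11.15, pandas 2.3.3 and matplotlib 3.10.9.

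Members, lists and tests were chosen with earlier results of these data known. Members named by rule were those called in any test, the 8 highest by CPM, the highest of each subfamily, those without a count in 1 tissue and at 5 CPM or more in another, Abcb1a with Abcb1b, and the 5 uncalled with the smallest any-tissue p. The remaining members are given by values, after these were seen, as neighbours or for completeness. Marker lists are given to describe the libraries and beside some genes, which they did not follow in every case. Kcnj11, Nr1i2 and Nr1i3 were not analysed here. Values of 2 members, which enter the counts and sums over the family, are not reported here, and 1 gene was left out of the peroxisome list.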

Additional observations from a re-analysis of the deposited data

How the results depend on the processing

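Among the 31 tested members, the number called rested on the test and on single libraries. Between meninges and diaphragm it was 0, against 4 with DESeq2, 1 with no filter (Abcc2, high in a single library) and 0 to 0 with 1 library left out. Between meninges and skin it was 1, against 3 with DESeq2, 4 with no filter and 0 to 3 with 1 library left out. Between diaphragm and skin it was 0, against 5 with DESeq2, 4 with no filter and 0 to 3. For any tissue it was 1, against 4 with the DESeq2 likelihood ratio test, 2 with limma voom, 2 with the robust fit, 6 with no filter and 0 to 4. The 3 calls between meninges and skin without Skin replicate 2 were Abca8a, Abca9 and Abcc9, and Abcb1a was then lost (adjusted p = 0.0587). Over all genes, the 51 calls between meninges and diaphragm became 926 with DESeq2, 200 with limma voom, 298 with no filter, 108 with 2 tissues and 19 to 105 with 1 library left out. The 196 between meninges and skin became 1459, 414 and 610 with the first 3 of these and 74 to 236 with 1 library left out. The 6 between diaphragm and skin became 1057 with DESeq2, 1 with limma voom, 36 with the robust fit, 305 with no filter, 13 with the filter of 50 counts, 1 with 2 tissues and 2 to 58 with 1 library left out. The 189 for any tissue became 1098, 430 and 886 with DESeq2, limma voom and no filter, and 74 to 275 with 1 library left out. The cause was not tested.

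Of 755 recomputed values over 42 fold changes of named members, 712 kept their direction and side of the threshold, 21 passed it newly, 6 no longer passed it and 16 changed sign. All changes of sign were of estimates that were not called. Between diaphragm and skin Abcf1 (-0.05) became 0.076 with limma voom. With 1 library left out, the log2 fold change of meninges over skin ran from -0.044 to 0.31 for Abca1, -0.31 to 0.013 for Abca3, -0.14 to 0.43 for Abcc5, -0.18 to 0.48 for Abcd3 and -0.86 to 0.010 for Abcg1. That of meninges over diaphragm ran from -0.34 to 0.49 for Abcc5, -0.028 to 0.66 for Abcc9 and -2.69 to 0.32 for Abcd2, and that of diaphragm over skin from -0.29 to 0.56 for Abcc5 and -0.27 to 0.15 for Abcf1.

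No pairing by replicate number was seen: libraries of the same number had correlated deviations between -0.02 and 0.05, and other pairs between -0.06 and 0.04. The labels do not say whether libraries of the same number share an animal, and with this spread such a link could be missed. With the number as a replicate block, 0, 1, 0 and 1 members were called in the order above, the sign changed for Abcf1 between diaphragm and skin (0.038), and all-gene calls were 70, 231, 16 and 210.

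With 3 libraries per tissue, a missed threshold does not show that tissues were alike. Libraries were amplified, so counts of members near 1 CPM are not counts of molecules.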
